A study of Mus musculus with 24 samples.

Results

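The genes described here are 35 nuclear receptors and nuclear receptor coregulators, chosen by name, though with earlier results of these data known. They were measured on 24 Affymetrix MoGene 2.0 ST arrays of mouse primary hepatocytes. These are liver cells taken from the animal and kept for a short time in culture. A gene was measured where a probe set, the group of probes that reports 1 transcript, carried its symbol alone in the platform annotation, and where it had several such probe sets the one with the highest mean was used. By this rule 33 of the 35 genes were found, 30 receptors and 3 coactivators, among 22180 genes in all. Nr1h2 and Ncor1 had no probe set of their own and were not analysed here.

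The donors of the hepatocytes were male C57Bl6J mice, as the labels state. The cells were infected with an adenovirus, at a multiplicity of infection of 5, that carried a short hairpin RNA either against the bacterial gene lacZ (shlacZ, the control) or against the transcription factor FOXA2 (shFOXA2.3, a single hairpin). Each culture then received 1 nM insulin or 100 nM glucagon for 4 h, and in addition either DMSO as vehicle or 2 µM of GW4064. That compound activates FXR, the nuclear receptor for bile acids encoded by Nr1h4. The 8 groups that result are shlacZ with insulin and DMSO, shlacZ with insulin and GW4064, shlacZ with glucagon and DMSO, shlacZ with glucagon and GW4064, and the same 4 treatments with shFOXA2.3. Every group held 3 arrays, which the labels number as experiments 1 to 3, and per the series' design text each experiment pooled the hepatocytes of 3 mice. All groups shared the virus and a medium with 100 nM dexamethasone, a ligand of the glucocorticoid receptor, and no group was without both hormones. The study set out to learn how FXR, FOXA2 and the fasting hormone glucagon act on hepatocyte genes. The comparisons below ask which nuclear receptor and coregulator transcripts differed with each of the 3 factors.

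Nuclear receptors are transcription factors that bind DNA through a zinc finger domain and whose activity is often set by a small lipid-soluble ligand, such as a steroid, retinoic acid, thyroid hormone, an oxysterol or a fatty acid. Many of them bind DNA as a pair with a retinoid X receptor. A receptor with its ligand recruits coactivators such as the p160 proteins, which bring histone acetyltransferases to the gene, and a receptor without it can hold corepressors in place. In the liver these receptors govern the uptake and breakdown of fatty acids, bile acid and cholesterol handling, drug metabolism and the daily rhythm of metabolic genes.

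The promoters of 4 of the 8 receptors whose transcripts differed between the hormones are shown first, because glucagon acts through cAMP and the factor CREB, which binds the cAMP response element. Each line gives the 250 bases before a transcription start, 5′ to 3′ on the strand of the gene, in RefSeq coordinates of GRCm38.p6. Capitals mark TGACG, the core of the element, or TGACGT where it extended that far, on either strand. For Nr6a1 the start that holds the motif is shown. The set shown holds all 3 of these 8 receptors with TGACG and, as an example of the 5 without it, Rora. These 3 were counted per gene, at any of its starts, so the shares per start given below are not like shares. Of the 3, Nr6a1 and Nr2c1 were lower with glucagon and Nr2c2 was higher. The other 4 without it were Ppard, Nr2f2, Rarb and Nr3c2.
Rora (chr9:68653536-68653785, plus strand): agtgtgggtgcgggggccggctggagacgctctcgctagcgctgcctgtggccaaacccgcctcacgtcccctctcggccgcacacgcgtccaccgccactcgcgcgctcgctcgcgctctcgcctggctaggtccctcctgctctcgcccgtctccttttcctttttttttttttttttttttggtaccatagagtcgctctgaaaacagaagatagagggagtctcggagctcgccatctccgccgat
Nr6a1 (chr2:38784516-38784765, minus strand): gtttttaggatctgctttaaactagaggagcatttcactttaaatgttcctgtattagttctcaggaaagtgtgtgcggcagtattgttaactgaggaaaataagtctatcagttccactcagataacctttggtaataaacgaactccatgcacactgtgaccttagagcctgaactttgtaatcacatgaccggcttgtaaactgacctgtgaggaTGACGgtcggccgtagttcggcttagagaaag
Nr2c1 (chr10:94147681-94147930, plus strand): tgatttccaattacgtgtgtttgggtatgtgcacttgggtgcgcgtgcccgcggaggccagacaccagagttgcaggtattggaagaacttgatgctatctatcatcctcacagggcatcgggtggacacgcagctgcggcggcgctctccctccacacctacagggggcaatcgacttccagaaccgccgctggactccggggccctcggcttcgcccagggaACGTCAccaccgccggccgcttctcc
Nr2c2 (chr6:92092183-92092432, plus strand): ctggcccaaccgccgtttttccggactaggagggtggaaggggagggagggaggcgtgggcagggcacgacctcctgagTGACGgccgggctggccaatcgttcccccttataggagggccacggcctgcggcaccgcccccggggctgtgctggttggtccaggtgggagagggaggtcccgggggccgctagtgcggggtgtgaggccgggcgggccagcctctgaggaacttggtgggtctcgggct
Promoter sequences from RefSeq were matched for 28 of the 33 measured genes, with 46 starts. TGACG lay upstream of 7 of these starts, in 7 genes, which is 15.2% of the starts against 17.7% of 32817 mouse promoters of the same length. TGACGT, which contains TGACG, lay upstream of 1 start, that of Nr2c1, and in 6.46% of all promoters. The full element TGACGTCA lay upstream of 0 of the 46 starts and in 1.55% of all promoters. The Rora promoter shown holds none of the 3 motifs. These matches describe letters in a window and not a bound factor.

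The deposited values are on a log2 scale and lay between 1.46 and 13.5 over the 41345 probe sets, with array medians from 3.21 to 3.28. The level of Foxa2 was lower with shFOXA2.3 in 12 of 12 pairs of arrays that shared experiment, hormone and drug, by 0.43 on average on the log2 scale, but by only 0.12 in experiment 3. Pck1, a gluconeogenic enzyme gene that glucagon induces, was higher with glucagon in 12 of 12 pairs. Albumin stood at 13.1 on average and all 10 measured hepatocyte markers lay above the floor defined in the next paragraph. So did 3 of 12 macrophage, 3 of 10 stellate, 7 of 10 endothelial, 2 of 6 cholangiocyte and 0 of 8 lymphocyte markers. Some arrays of experiment 3, mainly those with shlacZ, stood apart in 12 listed NF-kB target genes, which mark inflammation. Their mean level was 7.94 to 8.19 with insulin and 6.17 to 6.46 with glucagon in experiments 1 and 2. In the shlacZ arrays of experiment 3 it was 6.92 to 7.19 with insulin and 7.41 to 7.62 with glucagon. In the shFOXA2.3 arrays of experiment 3 it was 8.22 with insulin and DMSO, 7.34 with insulin and GW4064, 6.24 with glucagon and DMSO and 6.70 with glucagon and GW4064. For the 33 genes, averaged hormone results are therefore also given without experiment 3 where that changes a call.

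An array gives a signal even for a gene that is silent. The floor was set at 3.74 on the log2 scale, the 95th percentile of the mean levels of 1429 olfactory, vomeronasal and taste receptor genes, whose median was 2.81. A gene counted as expressed in a group when its mean over the 3 arrays lay above that floor. Of the 33 genes, 17 were expressed in all 8 groups, 2 in some and 14 in none. The share expressed in at least 1 group was 57.6%, against 45.2% of all genes.

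Among the receptors for retinoids and thyroid hormone, Thrb, the thyroid hormone receptor known as the main form in liver, lay between 4.49 and 5.19 on the 24 arrays, above the floor in all 8 groups. Thra, the other thyroid hormone receptor gene, lay between 2.82 and 3.29, below the floor on every array. Rara lay above the floor in all 8 groups, Rarb in 7 of 8 and Rarg in none. Of the retinoid X receptors, the common partners, Rxra and Rxrb lay above the floor in all 8 groups and Rxrg, which ranged from 2.33 to 2.83 with a median of 2.51, in none.

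The sensors of lipids and drugs also split. Ppard and Pparg, which bind fatty acids, Nr1h3, the oxysterol receptor LXR alpha, and Nr1i2, the drug sensor PXR, lay above the floor in all 8 groups. Nr1i3, the drug sensor CAR, ranged from 2.63 to 3.44 and Vdr, the vitamin D receptor, from 2.61 to 3.15, so neither reached the floor on any array. Nr1i3 is known as a gene of the intact liver that declines when hepatocytes are put in culture, and these arrays hold no uncultured liver to set it against.

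The orphan receptors, named for having no ligand when they were found, held the widest spread. Rora, Nr2c1, Nr2c2, Nr6a1, Nr2f6 and Esrra lay above the floor in all 8 groups and Nr2f2 in 5 of 8. Hnf4g, Nr5a1, Nr0b1, Nr2f1, Esrrb and Esrrg lay below it in every group. Esrrb, known from stem cells, gave the lowest signal of the 33 probe sets, 2.17 to 2.47 with a median of 2.26. The classic steroid receptors Esr1, Nr3c2 and Pgr were below the floor in all 8 groups, with Pgr at 2.34 to 2.73 and a median of 2.44. A single array of Nr3c2 reached 3.78, the highest value among the 14 genes near the floor, whose 24-array means lay between 2.27 and 3.30. The 3 p160 coactivators all lay far above the floor, Ncoa2 at 7.23 to 8.01 with a median of 7.68 and Ncoa3 at 6.995 to 7.61 with a median of 7.40. These 2 and Nr2c1, at 6.94 to 7.37 with a median of 7.16, gave the highest signals. Signals of different probe sets do not measure which transcript was the more abundant.

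**Figure D1:**
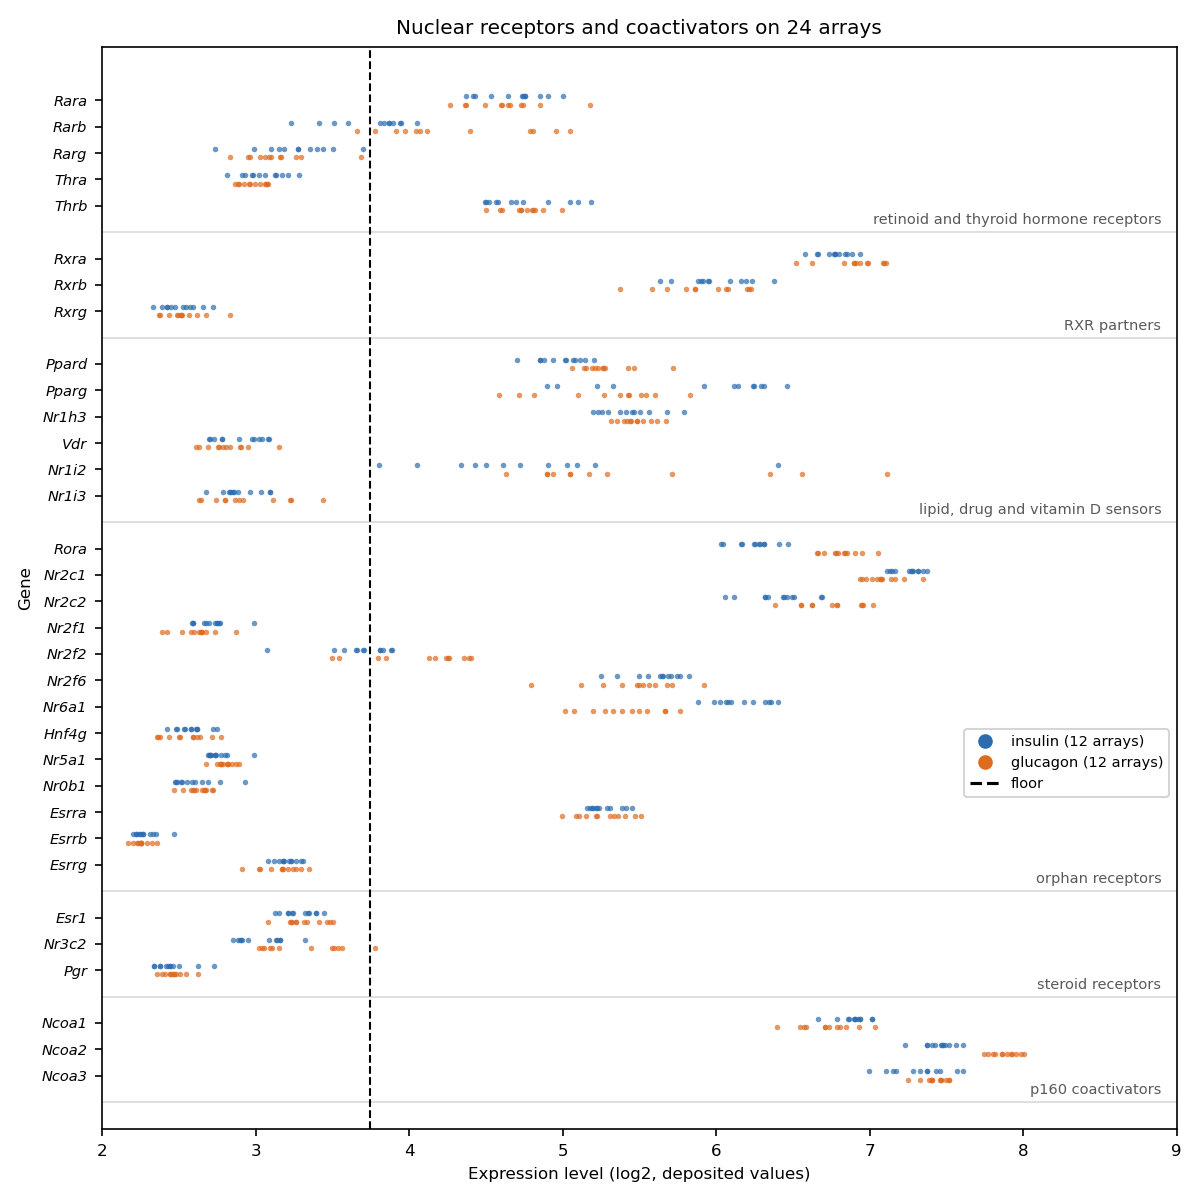
Level of each of the 33 measured genes on 24 arrays, on the log2 scale of the deposited values along the horizontal axis, grouped by role. Each point is 1 array, blue for insulin and orange for glucagon, and the dashed line is the floor of 3.74. The points of Rora, Ncoa2 and Nr6a1 fall into separate blue and orange clouds, and 14 genes lie left of the floor in every group mean. Levels of different genes come from different probes and are not to be compared.

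With glucagon in place of insulin, averaged over both hairpins and both drug conditions, 7 of the 33 genes rose and 2 fell, and 24 did not pass the test. An unadjusted p under 0.05 was reached by 13 of the 33, against 25.3% of all genes. The genes that rose were the coactivator Ncoa2 and the receptors Rora, Ppard, Nr2c2, Nr2f2, Rarb and Nr3c2, and those that fell were the receptors Nr6a1 and Nr2c1. The test was limma's moderated test with Benjamini-Hochberg adjustment over all 22180 genes and a threshold of 0.05. The same test called 16.2% of all genes, 7.38% higher and 8.85% lower, so the 27.3% of these genes has to be read against a broad response. Of the 19 genes above the floor in at least 1 group, 8 were called, or 42.1%, against 33% of all such genes. The median difference over the 33 genes was 0.0096, near the 0.0051 of all genes. With the experiment as a block, 13 of the 33 were called, 9 higher and 4 lower, among 24.6% of all genes, and the 9 genes named above were among them. Without experiment 1 only 3 stayed called, and the calls over all 22180 genes also fell, from 3600 to 2018.

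Rora encodes a receptor that activates genes of lipid metabolism and of the daily clock. On the 12 insulin arrays its level ran from 6.04 to 6.47 with a median of 6.27, and on the 12 glucagon arrays from 6.66 to 7.05 with a median of 6.81. The lowest glucagon array therefore lay above the highest insulin array. In shlacZ cells with DMSO the 3 insulin arrays read 6.31, 6.31 and 6.29 and the 3 glucagon arrays 6.66, 6.95 and 6.78. In shFOXA2.3 cells with DMSO they read 6.28, 6.04 and 6.41 with insulin and 6.77, 6.79 and 6.66 with glucagon. The averaged rise was 0.57 (SE 0.053, adjusted p = 1.22e-07), or 1.48-fold, and glucagon was higher in 12 of 12 pairs, as for 4.58% of all genes. It was 0.56, 0.75 and 0.39 in experiments 1, 2 and 3.

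Ncoa2 encodes the p160 coactivator known as GRIP1 or TIF2, a partner of the glucocorticoid receptor and of other receptors in liver. Its level was 7.23 to 7.61 with a median of 7.47 on the insulin arrays and 7.75 to 8.01 with a median of 7.88 on the glucagon arrays, again without overlap. With the control hairpin and DMSO the insulin arrays read 7.47, 7.43 and 7.38 and the glucagon arrays 8.01, 7.98 and 7.86. With shFOXA2.3 and DMSO the insulin arrays read 7.48, 7.61 and 7.56 and the glucagon arrays 7.82, 7.92 and 7.75. The averaged rise was 0.43 (SE 0.037, adjusted p = 3.69e-08), or 1.35-fold, with 0.45, 0.42 and 0.42 in the 3 experiments. The other p160 genes did not pass the test in the fit without a block. Ncoa3 was higher with glucagon in 10 of 12 pairs, by 0.10 on average (SE 0.063, adjusted p = 0.357), with 0.099, -0.024 and 0.235 in the 3 experiments. Ncoa1 ran from 6.66 to 7.02 with insulin and from 6.40 to 7.04 with glucagon, lower in 11 of 12 pairs by 0.17 on average (SE 0.060, adjusted p = 0.0602, or 0.0313 with the experiment as a block).

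Nr6a1, the orphan receptor GCNF, is best known for silencing stem cell genes in the embryo and germ line. Its level was 5.88 to 6.41 with a median of 6.14 on the insulin arrays and 5.02 to 5.77 with a median of 5.42 on the glucagon arrays, and the groups did not overlap. Under shlacZ and DMSO the insulin arrays read 6.41, 6.07 and 6.18 and the glucagon arrays 5.55, 5.28 and 5.08. Under shFOXA2.3 and DMSO the insulin arrays read 6.32, 5.99 and 6.02 and the glucagon arrays 5.67, 5.20 and 5.45. It fell by 0.76 (SE 0.090, adjusted p = 2.79e-06), which is 40.9% below the insulin level, and it was lower in 12 of 12 pairs, as were 5.75% of all genes. The differences were -0.69, -0.67 and -0.91 in the 3 experiments.

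Rora, Ncoa2 and Nr6a1 were thus the 3 genes of 33 whose insulin and glucagon arrays did not overlap, where 3.07% of all genes showed no overlap (1.11% with glucagon higher and 1.96% with glucagon lower). They were also the 3 that passed the test in each of the 4 conditions taken alone, as 1.99% of all genes did. In shlacZ cells with DMSO, 3 genes rose and 1 fell, where 4.68% of all genes were called (1.71% higher and 2.98% lower). The additional gene was Ppard, at 0.52 (SE 0.13, adjusted p = 0.0249). In shlacZ cells with GW4064, 2 rose and 1 fell, where 3.09% of all genes were called (1.29% higher and 1.8% lower). The same counts held in shFOXA2.3 cells with DMSO, where 4.79% were called (2.12% higher and 2.67% lower). In shFOXA2.3 cells with GW4064, 3 rose and 1 fell, where 3.49% of all genes were called (1.37% higher and 2.12% lower), the additional gene being Nr3c2 at 0.57 (SE 0.14, adjusted p = 0.0264). Calls in a single condition rest on 3 arrays against 3 and were easily lost. With the block, Pparg was also called lower in shlacZ cells with DMSO (adjusted p = 0.000624), in shlacZ cells with GW4064 (adjusted p = 0.0115) and in shFOXA2.3 cells with GW4064 (adjusted p = 0.0317). In these conditions the block called 1448, 997 and 1121 of all 22180 genes lower. Nr2f2 was called higher with the block in both GW4064 conditions (adjusted p = 0.0467 with shlacZ and 0.0183 with shFOXA2.3), as were 868 and 906 of all genes. Nr2c2 was called higher with the block in shFOXA2.3 cells with DMSO (adjusted p = 0.0139), as were 1179 of all genes. In shlacZ cells with DMSO, 2 calls remained without experiment 1 (Ncoa2 and Nr6a1) and 2 without experiment 3 (Ncoa2 and Rora).

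**Figure D2:**
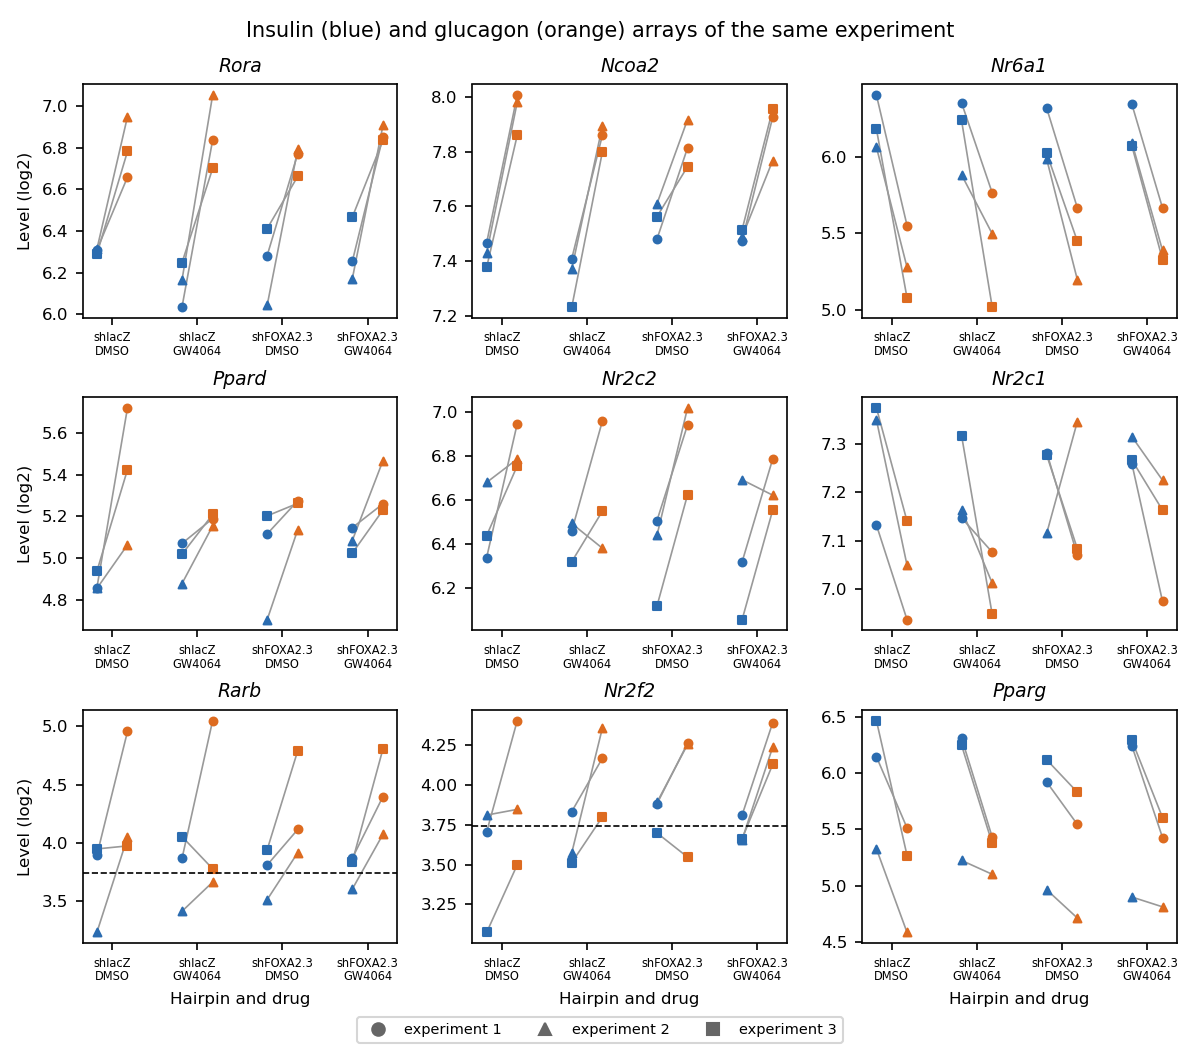
Levels on the log2 scale of 9 genes in each of the 4 combinations of hairpin and drug, with lines joining the insulin array (blue) and the glucagon array (orange) of the same experiment, and symbols marking experiments 1 to 3. All 12 lines rise for Rora, Ncoa2 and Ppard and all 12 fall for Nr6a1 and Pparg. The dashed line in the panels of Rarb and Nr2f2 is the floor of 3.74.

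The remaining calls were smaller or varied more between experiments. Ppard, which drives fatty acid oxidation genes, lay between 4.70 and 5.20 with insulin (median 5.02) and between 5.06 and 5.72 with glucagon (median 5.25). The ranges overlapped, but glucagon was higher in 12 of 12 pairs, by 0.29 on average (SE 0.066, adjusted p = 0.00312). The call was lost without experiment 1 (adjusted p = 0.0614).

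Nr2c1 and Nr2c2 encode the testicular receptors TR2 and TR4, which bind the same direct repeats of DNA, and they moved in opposite directions. Nr2c2 ran from 6.06 to 6.69 with insulin (median 6.44) and from 6.38 to 7.02 with glucagon (median 6.77), and was higher in 10 of 12 pairs. It rose by 0.34 (SE 0.080, adjusted p = 0.00469), with 0.50, 0.13 and 0.39 in the 3 experiments, and the call was lost without experiment 1 (adjusted p = 0.173). Nr2c1 ran from 7.12 to 7.37 with insulin (median 7.27) and from 6.94 to 7.35 with glucagon (median 7.07), and was lower in 11 of 12 pairs. It fell by 0.16 (SE 0.047, adjusted p = 0.0181), and the call was lost without experiment 1 (adjusted p = 0.134) or without experiment 3 (adjusted p = 0.205).

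Rarb encodes a retinoic acid receptor that is itself a target of retinoic acid. Its insulin arrays in shlacZ cells with DMSO read 3.89, 3.23 and 3.95 and its glucagon arrays 4.95, 4.05 and 3.97. The shFOXA2.3 cells with DMSO read 3.81, 3.51 and 3.94 with insulin and 4.12, 3.92 and 4.79 with glucagon. The 2 glucagon arrays of shlacZ cells in experiment 1 (4.95 and 5.05) and the 2 of shFOXA2.3 cells in experiment 3 (4.79 and 4.80) stood above the rest. Glucagon was higher in 11 of 12 pairs, by 0.55 (SE 0.17, adjusted p = 0.0259). The call was lost without experiment 1, 2 or 3 (adjusted p = 0.167, 0.0927 and 0.0527), in fits that hold fewer arrays. The difference itself stayed between 0.44 and 0.63 over the 34 alternative settings.

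Nr2f2, the orphan receptor COUP-TFII, is known in liver from hepatocytes and from venous endothelium. Its level crossed the floor, from 3.07 to 3.89 with insulin (median 3.70) and from 3.50 to 4.41 with glucagon (median 4.20). It was higher with glucagon in 11 of 12 pairs, by 0.40 (SE 0.11, adjusted p = 0.0150), and lost the call without experiment 1 (adjusted p = 0.168) or without experiment 2 (adjusted p = 0.192). The mean level of 10 endothelial markers was 4.20 to 5.26 on the insulin arrays and 4.23 to 5.29 on the glucagon arrays, and 0 of the 10 passed the test for the hormone. With the experiment as a block 3 of the 10 passed, Cdh5 (0.16, adjusted p = 0.0172) and Fcgr2b (0.17, adjusted p = 0.0313) higher and Oit3 (-0.32, adjusted p = 4.42e-05) lower. The part of these cells in the Nr2f2 difference was not tested. In these bulk samples a change in the number of cells of a type cannot be told apart from a change in RNA per cell.

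Nr3c2, the mineralocorticoid receptor, stayed below the floor in all 8 groups and its difference of 0.28 (SE 0.071, adjusted p = 0.00883) concerns a signal where the presence of transcript is itself uncertain. It is 1 of the 33 genes with 2 probe sets of its own, and with their mean the difference was 0.10 (adjusted p = 0.108). The call was also lost without experiment 1 (adjusted p = 0.0539) or without experiment 2 (adjusted p = 0.166). The group means with insulin and glucagon were 2.976 and 3.054 in shlacZ cells with DMSO, and 3.204 and 3.305 with GW4064. In shFOXA2.3 cells they were 2.991 and 3.347 with DMSO, and 2.967 and 3.538 with GW4064. The averaged rise of Nr3c2 therefore came mostly from the shFOXA2.3 cells.

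A further 4 genes, Ncoa1, Pparg, Nr1i2 and Rxra, did not pass in the fit without a block but passed with it, and under between 7 and 9 of the 34 alternative settings in all. Pparg, the receptor that promotes fat storage, lay between 4.90 and 6.46 with insulin (median 6.13) and between 4.59 and 5.83 with glucagon (median 5.40). The shlacZ insulin arrays with DMSO read 6.14, 5.33 and 6.46 and the glucagon arrays 5.51, 4.58 and 5.27. The array of experiment 2 was the lowest of its 3 in every group and the ranges of the hormones overlapped, yet glucagon was lower in 12 of 12 pairs. The averaged difference was -0.58 (SE 0.21, adjusted p = 0.0661, or 4.81e-06 with the block). Without experiment 2 the difference was -0.72 (adjusted p = 6.1e-05). Without experiment 1 it was -0.53 (adjusted p = 0.396) and without experiment 3 it was -0.49 (adjusted p = 0.298).

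Nr1i2 ran from 3.81 to 6.40 with insulin and from 4.63 to 7.11 with glucagon, with a difference of 0.71 (SE 0.25, adjusted p = 0.0629, or 0.0137 with the block). Rxra, the main partner of the lipid sensors in liver, ran from 6.58 to 6.94 with insulin and from 6.52 to 7.11 with glucagon, higher in 11 of 12 pairs by 0.14 (SE 0.051, adjusted p = 0.0845, or 0.0455 with the block). Both also passed without experiment 3 (adjusted p = 0.0281 for Nr1i2 and 0.0282 for Rxra). The other expressed genes, Ncoa3, Nr1h3, Thrb, Esrra, Rara, Rxrb and Nr2f6, differed by -0.15 to 0.10 and did not pass with or without the block. For Nr1h3 the 95% interval of the difference ran from -0.10 to 0.18, and for Thrb from -0.18 to 0.17.

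Other genes moved with the hormone on the same arrays. The mean level of 10 hepatocyte markers was 9.15 to 9.90 with insulin and 9.71 to 10.20 with glucagon, and 6 of the 10 rose (5 without experiment 3). The mean of 6 cholangiocyte markers was 3.78 to 4.27 with insulin and 3.58 to 3.79 with glucagon, where Sox9 fell. Krt19, another of these markers, was at -0.53 (adjusted p = 0.160), and passed with the block (adjusted p = 4.61e-05) and without experiment 3 (adjusted p = 1.48e-05). Of the 10 stellate markers Ngfr fell and Dcn rose, though Dcn did not pass without experiment 3 (adjusted p = 0.242). With the block the stellate markers Lrat (0.19, adjusted p = 0.0133), below the floor in every group, and Reln (0.25, adjusted p = 0.00923) were also called. None of 12 macrophage markers passed, but with the block Cd14 (0.38, adjusted p = 0.000162) and Cd68 (0.24, adjusted p = 0.0462) did, and Cd14 also did without experiment 3 (adjusted p = 0.0178). Of 8 lymphocyte markers 0 passed in any of these fits. Of the NF-kB target list 11 of 12 fell. The part of these shifts in the receptor differences was not tested.

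**Figure D3:**
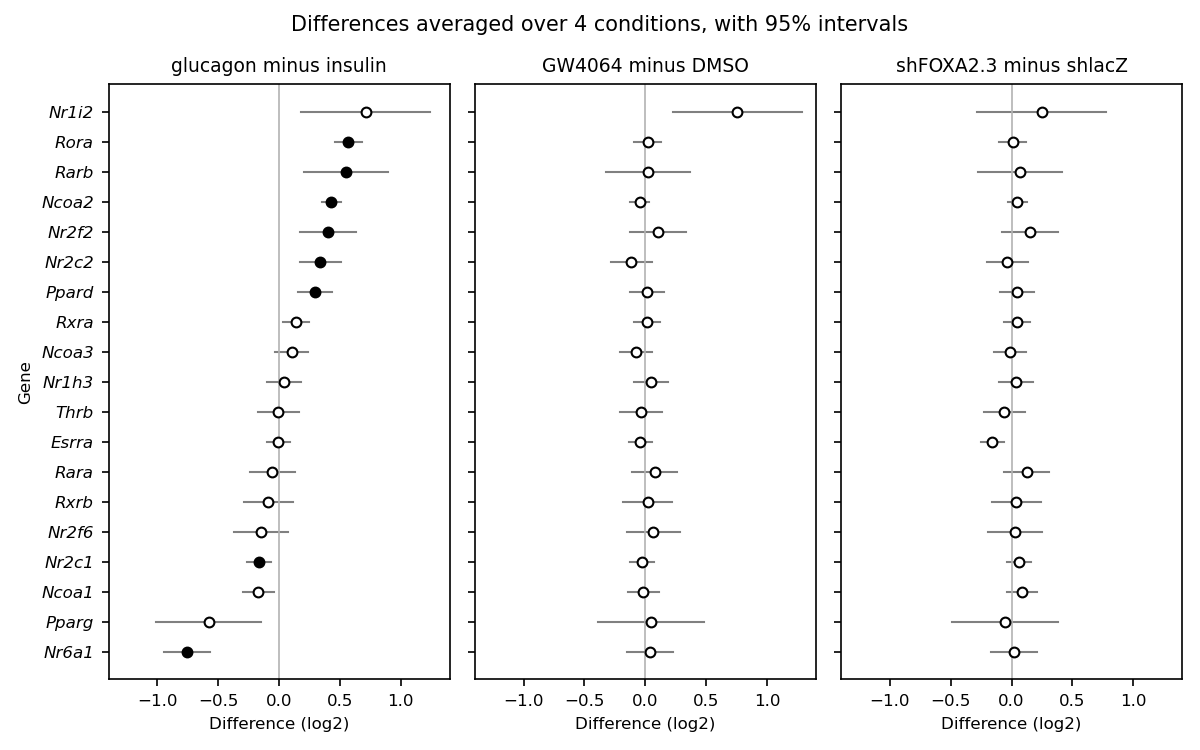
Differences on the log2 scale for the 19 genes above the floor in at least 1 group, averaged over 4 conditions, for the hormone (glucagon minus insulin), the drug (GW4064 minus DMSO) and the hairpin (shFOXA2.3 minus shlacZ). Points are the fitted differences, filled where the adjusted p is under 0.05, and lines are 95% intervals. The hormone panel spreads from -0.76 (Nr6a1) to 0.71 (Nr1i2) with 8 filled points, and the other panels have none.

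The FXR agonist changed 0 of the 33 genes by limma's test, averaged over the 4 conditions or within any of them, with or without the block. The averaged drug comparison called 2 of all genes (0.00902%) without the block and 3 with it. An unadjusted p under 0.05 was reached by 2 of the 33, Nr1i2 and the near-floor Nr3c2 (0.16), where 3.45% of all genes reached it. Leaving Nr1i2 aside, the differences of the other 18 expressed genes ran from -0.12 to 0.11, and their 95% intervals lay within -0.39 and 0.48.

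PXR, the product of Nr1i2, turns on drug-metabolising enzymes. The DMSO arrays of shlacZ cells with insulin read 4.05, 4.61 and 4.90 and the GW4064 arrays 5.21, 4.43 and 5.10. The DMSO arrays of shlacZ cells with glucagon read 4.63, 5.17 and 4.90 and the GW4064 arrays 6.56, 5.29 and 5.05. With shFOXA2.3 and insulin they read 4.50, 3.81 and 4.72 with DMSO and 5.03, 4.34 and 6.40 with GW4064. With shFOXA2.3 and glucagon they read 4.90, 4.94 and 5.71 with DMSO and 6.35, 5.05 and 7.11 with GW4064. GW4064 arrays were higher in 11 of 12 pairs, by between -0.18 and 1.93, and the ranges overlapped. The mean difference was 0.76 (SE 0.25, 95% interval 0.23 to 1.29), with 1.27, 0.15 and 0.86 in the 3 experiments. Its unadjusted p was 0.00751, the adjusted p was 0.9999 (0.505 with the block), and it was not called under any of the 34 alternative settings.

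**Figure D4:**
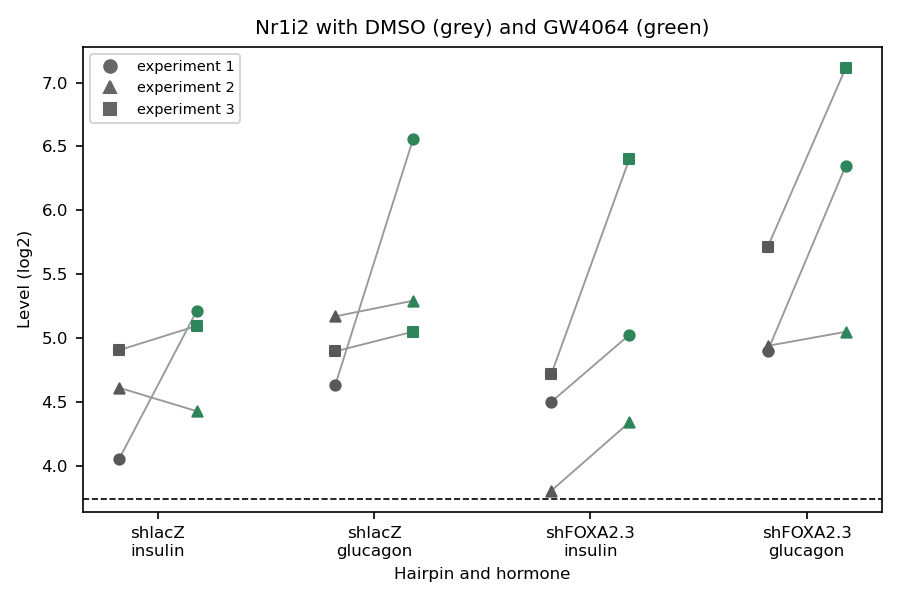
Level of Nr1i2 on the log2 scale in the 4 combinations of hairpin and hormone, with lines joining the DMSO array (grey) and the GW4064 array (green) of the same experiment. Of the 12 lines 11 rise, by 1.27 on average in experiment 1, 0.15 in experiment 2 and 0.86 in experiment 3. The dashed line is the floor of 3.74.

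The hairpin against FOXA2 changed 0 of the 33 genes by limma's test, with or without the block. Averaged over the 4 conditions, 0.00902% of all genes were called without the block, and 17 of 22180 with it. The largest share of all genes called for the hairpin in a single condition was 0.00451%, with insulin and DMSO. An unadjusted p under 0.05 was reached by Esrra and by the near-floor Vdr, 2 of 33, where 6.2% of all genes reached it. Esrra, the estrogen-related receptor that drives mitochondrial genes with PGC-1 coactivators, ran from 5.18 to 5.51 with shlacZ (median 5.35) and from 4.995 to 5.42 with shFOXA2.3 (median 5.196). It was lower with shFOXA2.3 in 11 of 12 pairs, by a difference of -0.16 (SE 0.046, adjusted p = 0.645, or 0.226 with the block). Without Nr1i2, the differences of the expressed genes lay between -0.16 and 0.15 and their 95% intervals within -0.49 and 0.41. The Foxa2 transcript itself was lower by 0.43 in the same arrays. It was also higher with glucagon than with insulin in 12 of 12 pairs, by 1.19 on average, a larger difference than that of the hairpin.

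Whether the hormone response depended on the drug or the hairpin was asked with interaction terms, and 0 of the 33 genes and 0 of all genes passed in any of the 4 terms. An unadjusted p under 0.05 was reached by 3 of the 33 for hormone by hairpin (4.15% of all genes), 1 for drug by hairpin (3.18%) and 0 for the other terms. The highest hormone by hairpin term of the 33 was 0.37, that of the near-floor Nr3c2. The rise of Ncoa2 with glucagon was 0.19 smaller with shFOXA2.3 than with shlacZ (an interaction of -0.19, 95% interval -0.34 to -0.03, adjusted p = 0.9998). For Rora the same term was -0.07 (95% interval -0.29 to 0.15) and for Nr6a1 0.13 (-0.24 to 0.51). Rxra had the drug by hairpin term, at 0.33 (95% interval 0.12 to 0.55, adjusted p = 0.9999). Among glucagon arrays its drug difference was -0.24 in shlacZ cells and 0.27 in shFOXA2.3 cells.

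Other nuclear receptors and coregulators were listed to set the 33 genes in their family, and the lists were not tested against each other. Of 18 other receptors 15 were measured, and with glucagon 6 rose, 3 fell and 6 did not pass. This is 60% of the 15, against 16.2% of all genes. Of the 15, 10 lay above the floor, so the 33% of all genes above the floor is not a like share. The orphan receptors of the NR4A family, early genes of cAMP signalling, led, with Nr4a3 at 5.38 (SE 0.080, adjusted p = 3.33e-20) and Nr4a1 at 1.97 (SE 0.12, adjusted p = 3.91e-10). Hnf4a, a master regulator of hepatocyte genes, rose by 0.97 (SE 0.15, adjusted p = 6.67e-05), and Nr1d1, the clock repressor REV-ERB alpha that competes with RORA for DNA, fell by 0.77 (SE 0.20, adjusted p = 0.00839). Nr1h4, named here because its product FXR is the receptor of GW4064, lay above the floor in all 8 groups and fell with glucagon by 0.48 (SE 0.14, adjusted p = 0.0185), a call lost without experiment 3 (adjusted p = 0.268). Of these receptors 1 passed for GW4064, Nr0b2, a known FXR target that encodes the corepressor-like receptor SHP, at 0.53 (SE 0.081, adjusted p = 0.0337), though its mean level of 3.16 was below the floor.

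Of 20 other coactivators 2 rose and 3 fell, or 25%. As 18 of the 20 lay above the floor, this is no more than the 33% of all such genes. With the block 5 rose and 4 fell, and without experiment 3 5 rose and 3 fell. Ppargc1a, which encodes PGC-1 alpha and is induced by glucagon in the fasting liver, rose by 3.76 (SE 0.27, adjusted p = 3.85e-09). Its relative Ppargc1b, below the floor in every group, rose by 0.29 (SE 0.066), the related Pprc1 fell by 0.73 (SE 0.069, adjusted p = 1.15e-07), and Smarcd1, a subunit of a chromatin remodeller, fell by 0.28 (SE 0.073). Of 13 measured corepressors of 14 listed, 4 rose and 3 fell, or 53.8%. Sin3a rose by 0.79 (SE 0.083, adjusted p = 5.92e-07) and Tbl1xr1, a subunit of the NCoR complex, by 0.49 (SE 0.063). Rcor1 and Kdm1a, partners in the CoREST complex, fell by 0.43 (SE 0.045) and by 0.42 (SE 0.086).

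**Figure D5:**
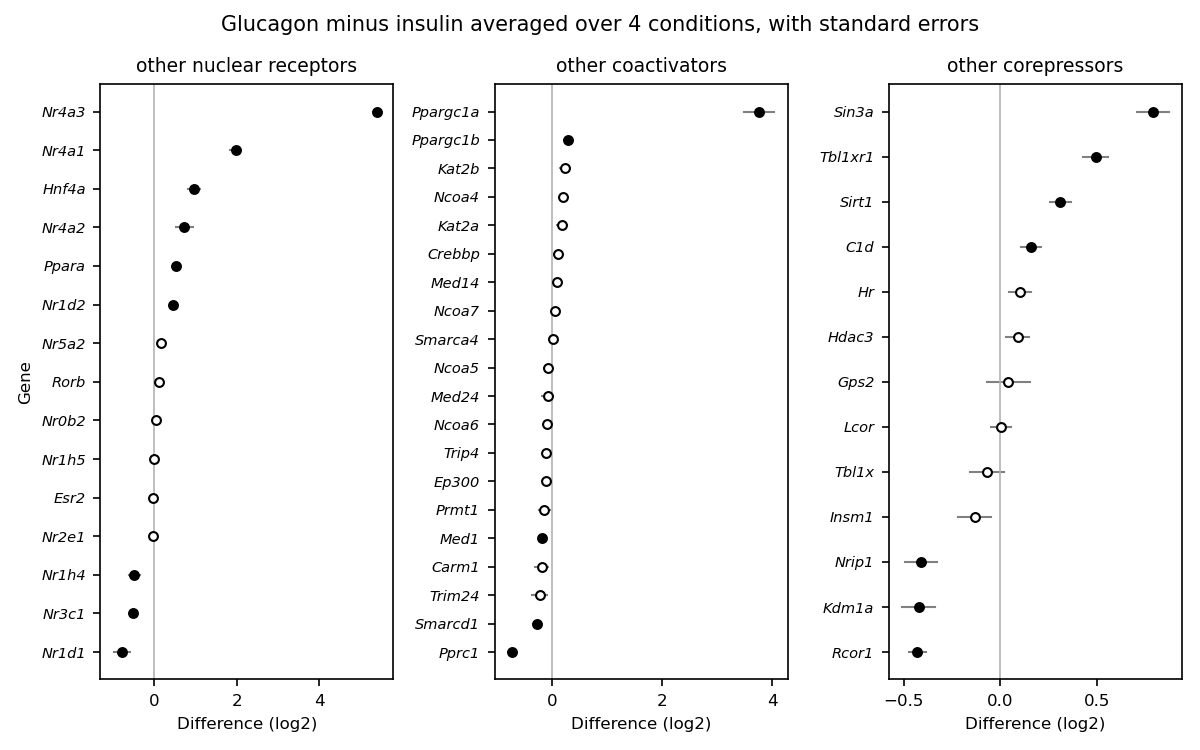
Differences between glucagon and insulin on the log2 scale, averaged over 4 conditions, for 15 other nuclear receptors, 20 other coactivators and 13 corepressors. Points are fitted differences, filled where the adjusted p is under 0.05, and lines are standard errors. Nr4a3 and Ppargc1a lie far to the right of their lists, and the horizontal scales of the panels differ.

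Target genes of the receptors were counted in the same averaged hormone comparison, where 16.2% of all genes and 33% of those above the floor were called. The share of a list called was 42.9% for retinoic acid receptor targets, 37.5% for thyroid hormone receptor targets, 33.3% for LXR targets and for PXR and CAR targets, 30% for PPAR targets, 22.2% for ERR targets and 80% for the 5 mineralocorticoid receptor targets. The lists are short, and their shares were not tested against these backgrounds. Of 7 measured retinoic acid receptor targets, 2 rose (Dhrs3 by 1.17 and Rarb itself) and 1 fell (Stra6 by 0.22, below the floor). With the block Cyp26a1 (0.58, adjusted p = 0.00264) and Lrat were also called. Of these, Dhrs3 lay above the floor in 5 of the 8 groups, Cyp26a1 in 2 and Lrat in none. Of 8 thyroid hormone receptor targets 3 rose, G6pc by 5.16, Bcl3 by 0.80 and Slc16a10 by 0.75. G6pc is also a gluconeogenic gene that glucagon induces through cAMP. With the block and without experiment 3, Thrsp was also called higher and Klf9 lower, and without experiment 3 Dio1 higher. Dio1 lay below the floor in every group. Of 9 LXR targets 3 rose, the cholesterol exporters Abca1 (0.97), Abcg5 (0.82) and Abcg8 (0.70), while Nr1h3 did not pass. Abcg5 and Abcg8 were near the floor, with mean levels of 3.79 and 3.44, and lay above it in 4 and 3 of the 8 groups.

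Of 9 PXR and CAR targets Alas1 rose by 0.97, and Gadd45b fell by 1.08 and Cyp3a13 by 0.24. Of 10 PPAR targets Cpt1a, the entry enzyme of mitochondrial fatty acid oxidation, rose by 2.05, and Angptl4 fell by 1.84 and Plin2 by 0.82. Of 9 ERR targets Mdh1 (0.40) and Acadm (0.25) rose. Of 5 mineralocorticoid receptor targets, which the glucocorticoid receptor shares, Zbtb16 (1.61), Sgk1 (1.16) and Tsc22d3 (0.61) rose and Fkbp5 fell by 0.34, and 0 of 4 vitamin D receptor targets passed. No target list held a gene that passed for GW4064 or for the hairpin.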

How the data were processed

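The arrays were hybridised with biotinylated DNA prepared from 300 ng of RNA per culture, per the labels' protocols. The values analysed are log2 expression values as the authors deposited them, 24 columns of 41345 probe sets. The range of the values shows that scale. How the authors corrected background and normalized was not given in the sources used here, and the series' design text names GeneSpring and the pooling of technical replicates.

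Of the probe sets, 23521 had 1 gene symbol, 1814 several and 16010 none. Genes on several single-symbol probe sets (1082 of 22180) were represented by the brightest. Differences were fitted by lmFit and eBayes of limma 3.58.1, run in R 4.3.3 (1 mean per group, 24 arrays, 16 residual degrees of freedom) and adjusted by Benjamini-Hochberg over all 22180 genes. The replicates were experiments, each of pooled mice. Without the block, p-values measure the spread of levels between experiments within a group and do not use the pairing. In differences averaged over 4 conditions, the 4 pairs from an experiment count as independent.

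Arrays with the same experiment number were paired: their deviations from group means correlated at r = 0.374 to 0.698 in all 84 same-experiment pairs, and 24 of 24 arrays matched their own experiment best. For the 33 genes the block value is printed where it changes a hormone call.

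The members and all gene lists were chosen with earlier results of these data known. Named were all members called in any contrast or called differently with the block, the 3 highest and 3 lowest signals, and up to 4 called genes of each other list by size of difference. The alternatives were the block, centring, quantile normalization, a floor filter, averaged probe sets, a trended prior, array weights, and leaving out each experiment or array. Plots used matplotlib 3.10.9 with Python 3.11.15. Protein motif searches were not run.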

Additional observations from a re-analysis of the deposited data

How the results depend on the processing

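The count of genes that differed by hormone, averaged over 4 conditions, was 9 of 33 and ranged from 3 to 13 over 34 alternatives. It ranged from 3 to 11 when an experiment or an array was left out, and the lowest count, 3, came without experiment 1. With the experiment as a replicate block it was 13. The calls over all 22180 genes moved too, from 3600 without a block to 2018 without experiment 1 and 5454 with the block. In shlacZ cells with DMSO the count was 4, with 5 under the block and 2 to 4 with an experiment or array left out. Of all genes, 379 were called higher and 660 lower in that condition, and 1033 and 1448 under the block. The counts for the drug, the hairpin and the interactions were 0 under all 34 alternatives, and no called difference of the 33 genes changed its direction. Differences near 0 did: among the averaged differences that passed no test, 8 for the hormone, 21 for the drug and 18 for the hairpin took both signs over the settings, such as that of Nr1h3 for the hormone, 0.04 and -0.0086 without experiment 3. Rora, Ncoa2 and Nr6a1 kept their averaged call in all 34. Array centring called 7 genes higher and 3 lower, and quantile normalization 8 and 3, where they called 3627 and 3586 of all genes. The number expressed in all 8 groups was 17 or 18 under other floors, scalings and omissions. With 3 arrays a group, the median standard error over genes was 0.13 for a single contrast and 0.063 for an averaged one. For genes below the floor, a decrease could go undetected.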

Other observations

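The level of some receptors differed as much between experiments as between treatments. Pparg averaged 5.82, 4.95 and 5.90 over the 8 arrays of experiments 1, 2 and 3, a range of 0.95 on the log2 scale, against a hormone difference of -0.58. Nr1i2 averaged 5.15, 4.71 and 5.49, and Rarb 4.24, 3.68 and 4.14. Experiment 2 was the lowest for all 3 of these genes. Nr2f2 averaged 4.06, 3.95 and 3.62. Rora (6.50, 6.55 and 6.55) and Ncoa2 (7.68, 7.68 and 7.63) differed between experiments by no more than 0.052. The mean of the 10 endothelial markers was 5.15 to 5.29 in experiment 1, 4.20 to 4.36 in experiment 2 and 4.38 to 4.53 in experiment 3.

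The hairpin difference of Rarb ran in opposite directions, at -0.39 in experiment 1, 0.19 in experiment 2 and 0.41 in experiment 3. That of Nr1i2 was 0.08, -0.34 and 1.00. In experiment 3 the Foxa2 difference was -0.12, against -0.51 and -0.66 in the others. These values were not tested for a difference between experiments.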
